A study of Homo sapiens with 6 samples.

Results

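The 10 genes described here are NF2, LATS1, LATS2, YAP1, WWTR1, TEAD1, CCN1, CCN2, AMOTL2 and ANKRD1, which were chosen by name as the Hippo pathway genes around Merlin and YAP. They and the lists of other genes below were chosen with earlier results of these data known. All 10 had a row among the 21494 genes of the RNA-seq table, and all 10 passed the filter on low counts that left 16756 genes to be tested. The samples were 3 labelled Control sh and 3 labelled VprBP sh, the latter with the genotype DCAF1 knockdown, and all 6 were labelled as G361, an established human melanoma cell line, although the labels also give LD611 as the source. The methods describe lentiviral shRNA vectors with puromycin selection and a single shRNA against the coding region of VprBP, the protein made by DCAF1, so that the knockdown rests on 1 shRNA sequence. VprBP is the substrate receptor of a cullin-RING ubiquitin ligase and has been described as a kinase of histone H2A. The question put to these genes was how their mRNA differed between VprBP sh and Control sh.

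In the Hippo pathway, the kinases MST1 and MST2 activate LATS1 and LATS2, which phosphorylate the coactivators YAP (from YAP1) and TAZ (from WWTR1) and so keep them out of the nucleus. YAP and TAZ that enter the nucleus bind TEAD transcription factors and switch on genes such as CCN1, CCN2, ANKRD1 and AMOTL2, and several of these targets, LATS2 and AMOTL2 among them, feed back to restrain YAP. Merlin, the product of the tumour suppressor NF2, promotes LATS activity at the membrane and, in the nucleus, binds and inhibits the ligase that contains VprBP, which is known to ubiquitinate the LATS kinases. That control acts on proteins, whereas the values below are mRNA levels.

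Total estimated counts ran from 18195949 to 26883948 per sample. Values are counts scaled by upper quartile factors (normalized counts, mean ± SD, n = 3 unless stated), and a gene was called when edgeR's quasi-likelihood test gave a Benjamini-Hochberg adjusted p under 0.05 over all 16756 genes together with a fold change over 2. By this rule 46.4% of all genes tested were called, 24.5% as higher and 22.0% as lower in VprBP sh, and in 79.5% of all genes the 3 values of one group lay entirely above those of the other. Nothing in the labels states that the samples of a group were separate cultures, so p-values measure only the spread between these samples. The mRNA of DCAF1 itself had 797, 971 and 838 normalized counts in Control sh and 760, 507 and 481 in VprBP sh, on the log2 scale a difference of -0.58 (standard error 0.17, adjusted p = 0.0125 by edgeR), and replicate 1 of VprBP sh was thus close to the lowest Control sh sample. That library also stood apart in its counts as a whole, with a chi-square per degree of freedom of 24.9 and 26.6 against replicates 2 and 3, which gave 2.32 between themselves. In Control sh, replicate 1 likewise stood at 16.1 and 19.0 and the others at 2.45.

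Markers of the labelled cell type were low and markers of other epithelia differed between the groups. Of 8 melanocyte markers, 4 had a row in the table, their summed level ran from 199 to 236 normalized counts in Control sh and from 244 to 308 in VprBP sh, MLANA and TYRP1 had at most 5 counts in any sample, and SOX10, TYR, DCT and S100B had no row. Of 10 urothelial markers, 7 were tested, 4 were called lower and 2 higher, and their sum ran from 103912 to 113556 in Control sh and from 25098 to 28548 in VprBP sh, where UPK1B had 0 counts. TP63, a basal epithelial factor, went from 8929 ± 1015 to 9.44 ± 0.98 normalized counts, and GATA3, a luminal factor, from 3.07 ± 4.40 to 1529 ± 205. The most abundant of these markers were KRT5 (64989 ± 7916 and 3488 ± 1354, called lower) and KRT7 (35085 ± 1499 and 21576 ± 3497, not called). UPK2 (211 ± 8.62 and 43.6 ± 13.6) was called lower and PPARG (277 ± 67 and 726 ± 24) higher. Of 6 fibroblast markers 3 of 4 tested were called lower, with sums of 755 to 803 and 457 to 602 and with LUM at 0 in VprBP sh. COL3A1 and DCN had no row. Of 4 immune markers both tested, CD68 and CD14, were called lower, with sums of 1289 to 1872 and 135 to 479, and PTPRC and CD3E had no row. Of 3 endothelial markers 2 were called lower, with sums of 618 to 687 and 29.0 to 39.1. These differences run through every comparison of the groups below, and their part in the results was not tested. Neither the labels, which name both G361 and LD611, nor these markers settle whether the samples of both groups are the same cells, so the knockdown and a difference between cells cannot be told apart in any fold change below.

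YAP1 and ANKRD1 fell and WWTR1 rose, while the other 7 genes did not pass both cutoffs. YAP1 (ENSG00000137693.14, hg38 chr11:102110447-102233424, plus strand) had 81387, 76985 and 76134 normalized counts in Control sh and 6362, 6074 and 6198 in VprBP sh. The groups were far apart and each was narrow. The log2 fold change was -3.65 (standard error 0.08, adjusted p = 1.14e-09 from edgeR), which is 12.6-fold lower. Divided by exonic length and scaled to a common total (TPM), YAP1 stood at 2178 ± 79.7 in Control sh, rank 40 among 16738 genes, and at 188 ± 7.13 in VprBP sh, rank 849. In bulk samples, fewer cells of a type and less RNA per cell cannot be told apart. Its change ranked 2362 by size among all genes tested.

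WWTR1 (ENSG00000018408.15, chr3:149517235-149736714, minus strand), the gene of TAZ, the close relative of YAP, had 2014, 1730 and 1716 normalized counts in Control sh and 4738, 4671 and 4583 in VprBP sh. All VprBP sh samples lay above all Control sh samples. Its log2 fold change was 1.36 (standard error 0.09, adjusted p = 5.35e-07 from edgeR). Per length, YAP1 made up 98.3% ± 0.09 of the summed YAP1 and WWTR1 transcripts in Control sh and 63.8% ± 0.48 in VprBP sh, where WWTR1 made up 36.2% ± 0.48. The sum of both was 2216 ± 83.2 TPM in Control sh and 294 ± 10.6 in VprBP sh, so the rise of WWTR1 was small beside the fall of YAP1. For this sum, a two-sided exact permutation test returned p = 0.1, which is the lowest value possible with 3 samples in each group.

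**Figure D1:**
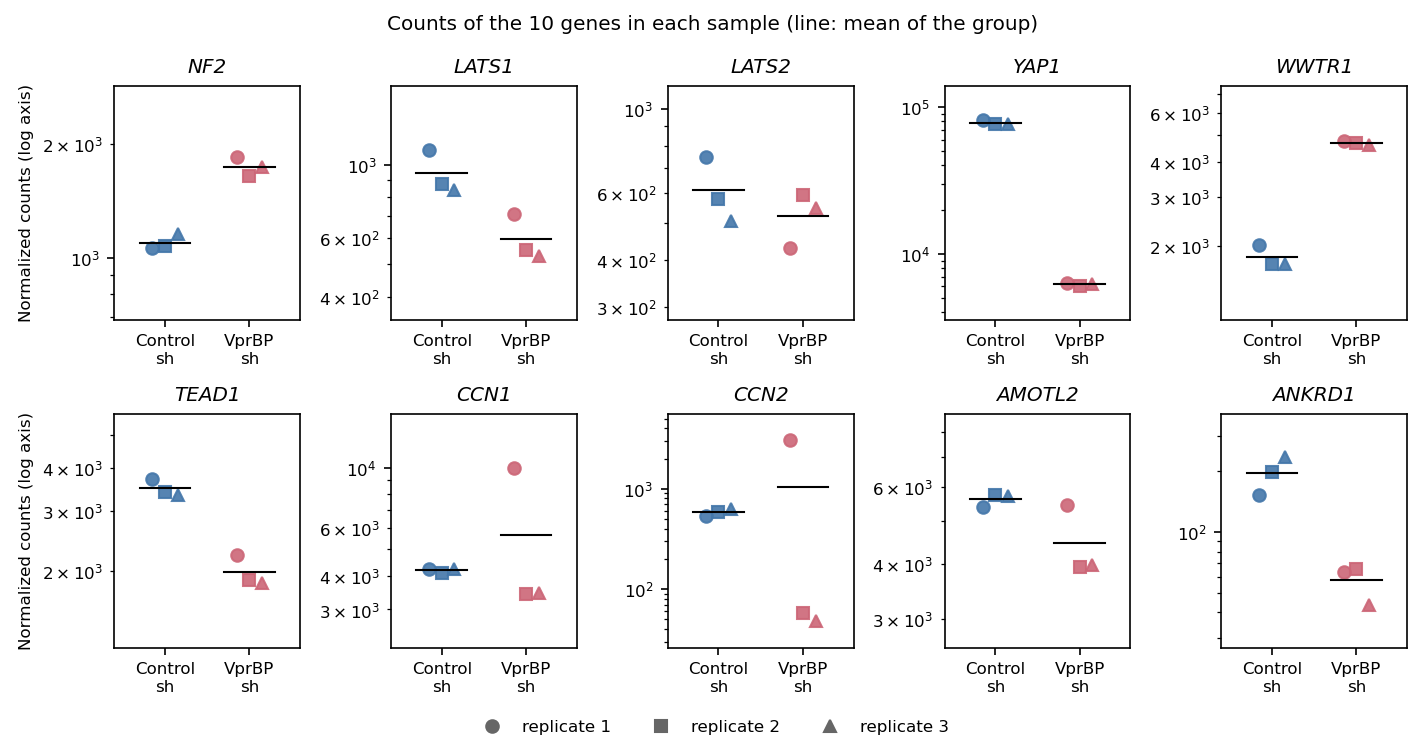
Normalized counts of each of the 10 genes on a log axis that differs between panels, with 1 point per sample (circle, square and triangle for replicates 1, 2 and 3) and a line at the group mean. YAP1, ANKRD1, LATS1 and TEAD1 lie lower in all VprBP sh samples and WWTR1 and NF2 higher, whereas replicate 1 of VprBP sh lies far above the other replicates for CCN2 and CCN1.

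The fall of YAP1 was shared by the genes around it on chromosome 11. Of 14 other genes tested whose start lies within 1 Mb of the start of YAP1, 13 were called lower and 0 higher, with a median log2 fold change of -4.63, where 22.0% of all genes were called lower. For 5 of the 14, no VprBP sh sample exceeded 3 counts, and the median uses their fitted values, which such counts do not bound. The noncoding RNA gene ENSG00000277459 overlaps YAP1 on the opposite strand, so their reads cannot be told apart. TMEM123-DT and ENSG00000256916 were low, at 25.4 and 16.2 normalized counts in Control sh. The neighbours named here were chosen after their values were seen. CEP126, a centrosomal protein gene, had 2752, 3048 and 3145 normalized counts in Control sh and 99.4, 109 and 124 in VprBP sh. BIRC2 and BIRC3, which encode the apoptosis inhibitors cIAP1 and cIAP2, had 27523 ± 693 and 18521 ± 1864 normalized counts in Control sh and 1192 ± 61 and 160 ± 10 in VprBP sh. TMEM123 had 121029, 131295 and 130994 normalized counts in Control sh and 8066, 6805 and 6334 in VprBP sh. These abundant neighbours thus fell by amounts like that of YAP1 or larger. CFAP300 and MMP7, the gene of matrilysin, stood at 1408 ± 86 and 1362 ± 94 normalized counts with Control sh, whereas all VprBP sh samples had 0 counts, at least 482-fold and 466-fold lower when set against 3 counts per library. DCUN1D5, 940 kb from YAP1, was the exception, with 906 ± 56 and 1348 ± 92 normalized counts. Whether the chromosomal neighbourhood bears on the YAP1 difference was not tested.

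**Figure D2:**
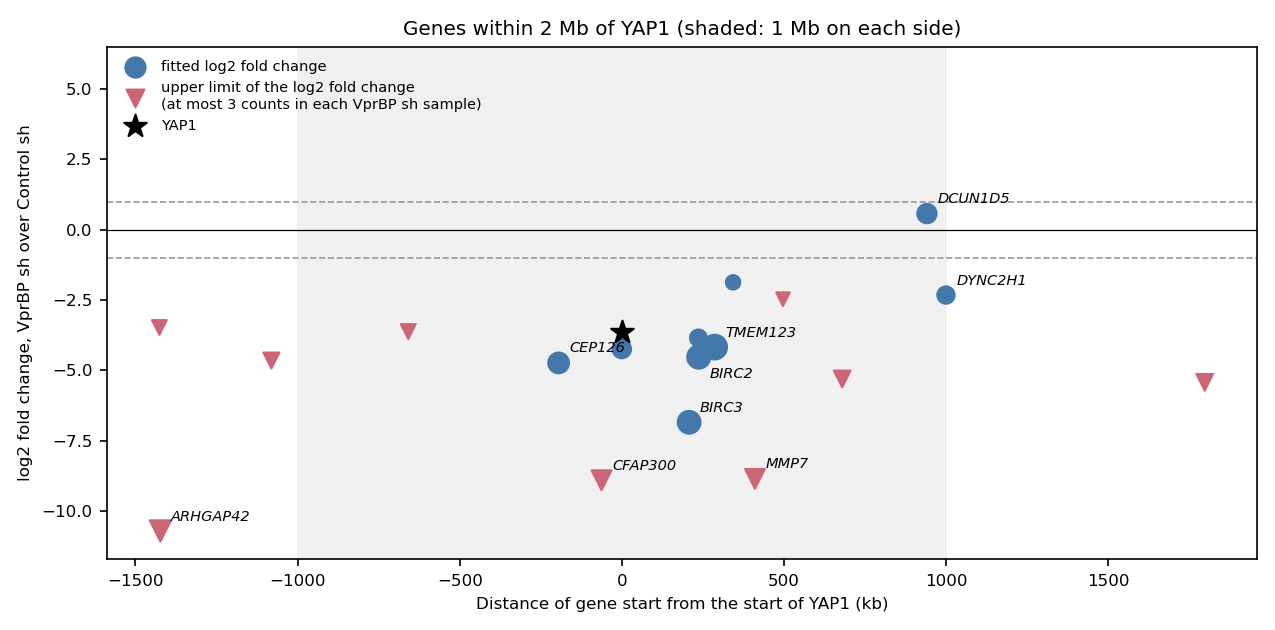
Fitted log2 fold change (circles) of genes within 2 Mb of YAP1 (star) against the distance of their start from its start in kb, with larger symbols for higher Control sh levels, triangles for the highest value that 3 counts per VprBP sh sample allow, dashed lines at 2-fold and shading for 1 Mb on each side. Of the 14 neighbours in the shaded range, 13 lie below the lower dashed line, and DCUN1D5 lies above 0.

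Near each of the other members, genes were called in both directions. Of all genes tested, 22.0% were called lower and 24.5% higher. Within 1 Mb of TEAD1, 6 of 9 genes tested were called lower and 1 higher (median log2 fold change -1.71). Within 1 Mb of LATS1, 9 of 20 were called lower and 2 higher (median -0.82). Around WWTR1, 7 of 18 were called higher and 4 lower (median 0.50), and around NF2, 10 of 32 were called higher and 4 lower (median 0.54). Around CCN1, 7 of 13 were called higher and 1 lower, while for LATS2, CCN2, AMOTL2 and ANKRD1 the numbers in the 2 directions differed by at most 2.

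NF2 (ENSG00000186575.19, chr22:29603556-29698598, plus strand) had 1058, 1074 and 1153 normalized counts in Control sh and 1839, 1641 and 1734 in VprBP sh. All VprBP sh values were higher, by 0.67 on the log2 scale (standard error 0.09, edgeR adjusted p = 6.58e-05), which does not reach 2-fold. Merlin shares its FERM domain with ezrin, radixin and moesin, which link the membrane to actin. EZR went from 20696 ± 1268 to 6983 ± 245 normalized counts and MSN from 19882 ± 935 to 4656 ± 165, and both were called lower. RDX had 2907 ± 103 and 2668 ± 684 (adjusted p = 0.477 from edgeR). Per length, NF2 made up 1.74% ± 0.13 of the transcripts of these 4 genes in Control sh and 7.63% ± 0.39 in VprBP sh.

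LATS1 (ENSG00000131023.13, chr6:149658153-149718105, minus strand) had 1110, 873 and 841 normalized counts in Control sh and 711, 552 and 530 in VprBP sh. The groups did not overlap, and in both of them replicate 1 was the highest. Its log2 fold change was -0.66 (standard error 0.15, adjusted p = 0.00279 from edgeR), short of 2-fold. LATS2 (ENSG00000150457.9, chr13:20973036-21061586, minus strand) had 746, 579 and 508 normalized counts in Control sh and 429, 593 and 547 in VprBP sh. These values overlapped (log2 fold change -0.22, standard error 0.17, adjusted p = 0.254 from edgeR). Per length, LATS1 held 50.6% ± 1.5 of the LATS transcripts in Control sh and 43.1% ± 8.0 in VprBP sh, where replicate 1 stood at 52.3% and the other replicates at 38.1% and 39.0%. Of the LATS-related kinases, STK38 was called higher (732 ± 61 and 1882 ± 106 normalized counts), and STK38L had 565 ± 2.66 and 541 ± 31 (adjusted p = 0.568 from edgeR).

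TEAD1 (ENSG00000187079.20, chr11:12674421-12944737, plus strand), which lies on the other arm of the chromosome that carries YAP1, had 3729, 3408 and 3345 normalized counts in Control sh and 2230, 1880 and 1845 in VprBP sh. The groups were apart, at a log2 ratio of -0.82 (standard error 0.10, edgeR adjusted p = 3.63e-05) that missed the 2-fold cutoff. The other TEAD genes were higher in all VprBP sh samples. TEAD2 was called, going from 755 ± 45 to 1837 ± 122 normalized counts (log2 fold change 1.28, adjusted p = 1.20e-06 from edgeR), whereas TEAD3 (0.67, adjusted p = 0.00015) and TEAD4 (0.45, adjusted p = 0.00261) stayed under 2-fold. Summed per length, the TEAD genes had 209 ± 5.60 TPM in Control sh and 327 ± 8.47 in VprBP sh. TEAD1 made up 27.5% ± 1.3 of this sum in Control sh and 10.9% ± 1.7 in VprBP sh, and TEAD2 21.3% ± 0.83 and 36.0% ± 0.78. A two-sided exact permutation test returned p = 0.1 for the sum and for both shares. The share of TEAD1 differed by -16.6 percentage points (VprBP sh minus Control sh), and by -27.7 when counts were not corrected for length.

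AMOTL2 (ENSG00000114019.15, chr3:134355347-134375479, minus strand) encodes a motin, a junctional scaffold that binds YAP and is itself a YAP target. It had 5389, 5747 and 5713 normalized counts in Control sh and 5445, 3945 and 3969 in VprBP sh. Replicate 1 of VprBP sh lay within the Control sh range and the others below it. The log2 fold change was -0.34 (standard error 0.13, adjusted p = 0.0337 from edgeR) with all samples, -0.51 (adjusted p = 0.000102) without VprBP sh replicate 1, and between -0.37 and -0.26 (adjusted p from 0.0506 to 0.119) when any other sample was left out. With library size as the only scaling it was -0.12 (adjusted p = 0.403). The fit without VprBP sh replicate 1 rests on only 2 VprBP sh libraries, which were close in their counts as a whole (chi-square per degree of freedom 2.32). AMOT, the founding motin, had 1, 0 and 0 counts among the Control sh samples but 5841, 5712 and 7835 in VprBP sh, at least 1927-fold higher when set against 3 counts per library. AMOTL1 went the other way, from 3652 ± 586 to 1652 ± 153 normalized counts, and was called lower, although not with library size alone (log2 fold change -0.93). Per length, AMOTL2 held 70.5% ± 4.0 of the motin transcripts in Control sh and 43.4% ± 3.9 in VprBP sh, where AMOT held 46.0% ± 2.0.

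**Figure D3:**
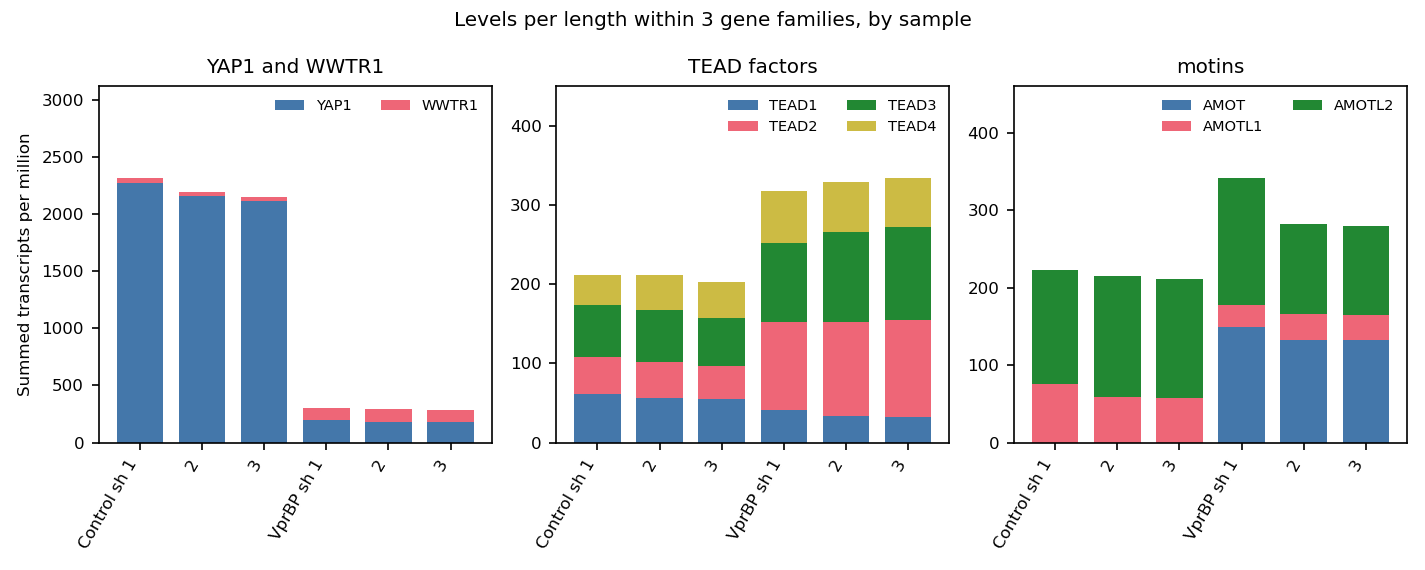
Stacked bars of TPM, computed from counts and exonic length, for YAP1 with WWTR1, the 4 TEAD genes and the 3 motin genes, 1 bar per sample and each panel on its own scale. The sum of YAP1 and WWTR1 is 2216 in Control sh and 294 in VprBP sh on average, and AMOT is visible only in the VprBP sh bars, with 1 count in all Control sh samples together.

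CCN1, CCN2 and ANKRD1 are the targets most often used to read out YAP and TAZ. Their promoters are shown because TEAD factors recognise a short element, GGAATG, whose reverse complement is CATTCC. RefSeq promoters of GRCh38.p14, with 250 bases before and 50 bases after a start site, were available for 8 of the 10 genes (12 promoters), with no entry for CCN1 and TEAD1. The element, on either strand, is in 5 of these 12, in 14.0% of 34943 promoters of the same length, at least 2 times in 1.37% and at least 3 times in 0.126% of them. Below, capitals mark the element and the strand is that of the gene. CCN2 (chr6:131951323-131951622, minus strand) holds it 3 times, beginning 169, 104 and 95 bases before the start site, and ANKRD1 (chr10:90921038-90921337, minus strand) holds it 2 times, beginning 220 and 128 bases before it.
CCN2 promoter: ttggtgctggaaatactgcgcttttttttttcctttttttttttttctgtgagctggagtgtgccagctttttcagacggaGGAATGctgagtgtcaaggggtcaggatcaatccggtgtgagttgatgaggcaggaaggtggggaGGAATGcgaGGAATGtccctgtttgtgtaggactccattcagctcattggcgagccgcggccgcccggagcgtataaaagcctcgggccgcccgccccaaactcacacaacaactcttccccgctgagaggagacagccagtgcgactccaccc
ANKRD1 promoter: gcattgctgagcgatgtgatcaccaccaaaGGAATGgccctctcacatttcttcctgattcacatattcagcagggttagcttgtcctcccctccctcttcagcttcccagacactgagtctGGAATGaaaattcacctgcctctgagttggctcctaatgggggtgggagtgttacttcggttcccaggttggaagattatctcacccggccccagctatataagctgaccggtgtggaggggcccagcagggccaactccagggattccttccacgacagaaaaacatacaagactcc
In YAP1 it begins 162 bases before the start site, in LATS2 9 bases after it, and in 1 of the 2 promoters of AMOTL2 69 bases before it on the other strand, as the 30 bases around each show.
YAP1 element: cgggagtgtgcaGGAATGtagcaacttgca
LATS2 element: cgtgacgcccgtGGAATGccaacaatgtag
AMOTL2 element: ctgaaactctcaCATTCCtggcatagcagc
A match is a description of these letters and shows no binding. The promoters of NF2, LATS1 and WWTR1 in this table do not hold them.

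CCN2 (ENSG00000118523.6, chr6:131948176-131951372, minus strand), formerly CTGF, encodes a secreted matricellular protein. It had 533, 583 and 627 normalized counts in Control sh and 3029, 57.1 and 48.3 in VprBP sh. Replicate 1 of VprBP sh thus lay above every Control sh sample and the other replicates far below. With all samples the log2 fold change was 0.83 with a standard error of 1.17 (adjusted p = 0.534 from edgeR). Without VprBP sh replicate 1 it was -3.47 (adjusted p = 3.99e-07 from edgeR), a reversal that makes CCN2 a called decrease. That fit rests on only 2 VprBP sh libraries, which were close in their counts as a whole (chi-square per degree of freedom 2.32). Its p-value says nothing of the spread beyond these libraries. With 1 normalized count added to both sides, the level in replicate 1 was 56.4 times the mean of replicates 2 and 3, and 0 other genes among the 13320 whose mean reached 50 normalized counts differed as much between these libraries.

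CCN1 (ENSG00000142871.18, chr1:85580761-85584589, plus strand), formerly CYR61 and a matricellular protein like CCN2, showed the same split to a smaller degree. It had 4250, 4100 and 4245 normalized counts in Control sh and 10020, 3435 and 3450 in VprBP sh, with replicate 1 at 2.91 times the mean of the others on the same scale. The log2 fold change was 0.42 (standard error 0.36, adjusted p = 0.304 from edgeR) with all samples. Without VprBP sh replicate 1 it was -0.29 (adjusted p = 0.00201 from edgeR), under 2-fold and resting on the same 2 VprBP sh libraries. Among other targets in the list below, EDN1 (2.46 times) and THBS1 (2.11 times) were also higher in that replicate, IGFBP3 was lower (0.523 times), and the 18 others tested lay between 0.755 and 1.504 times. For AXL, FOXF2 and RBMS3, with at most 3 counts in any VprBP sh sample, the added count sets much of this ratio. The other CCN genes tested were called lower. CCN3 went from 159 ± 24 normalized counts to 0, 1 and 0 counts (at least 54.5-fold lower), CCN6 from 290 ± 47 to 0, 0 and 1 counts (at least 99.2-fold lower), and CCN5 from 179 ± 19 to 20.0 ± 12.6 normalized counts. No row was found under the name CCN4, so it was not analysed here.

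ANKRD1 (ENSG00000148677.7, chr10:90912096-90921087, minus strand), which encodes a nuclear ankyrin repeat protein, had 152, 198 and 236 normalized counts in Control sh and 63.6, 65.5 and 43.7 in VprBP sh. The groups were apart, and replicate 1 of VprBP sh behaved like the others. ANKRD1 fell, by 1.78 on the log2 scale (standard error 0.23, edgeR adjusted p = 7.45e-05), with estimates from -1.93 to -1.60 when any 1 sample was left out.

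**Figure D4:**
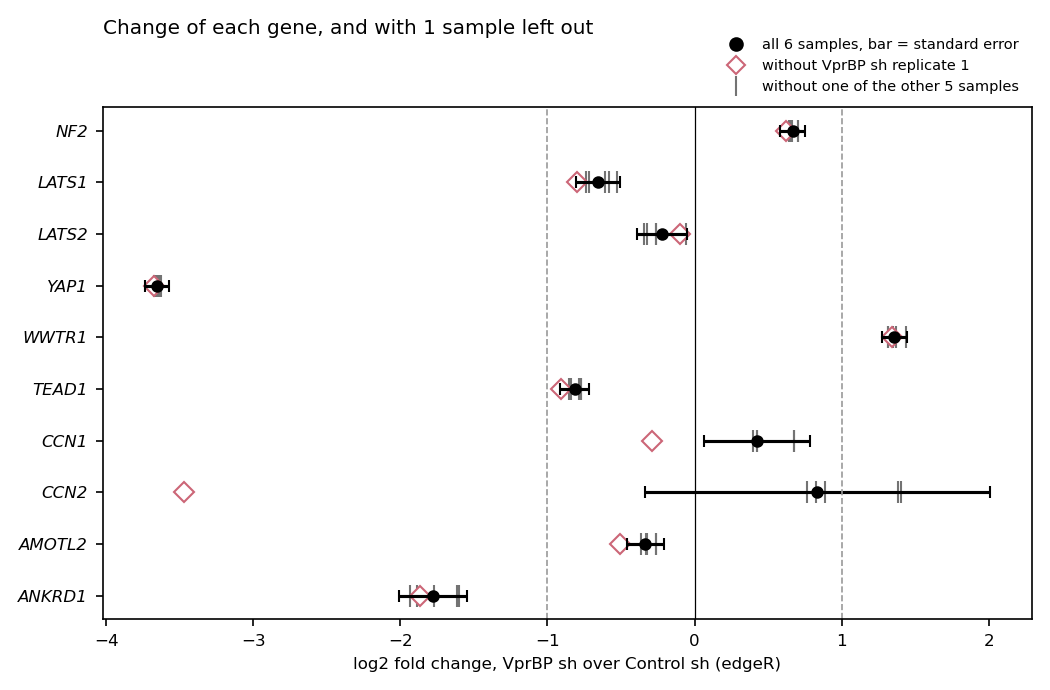
Log2 fold change of the 10 genes with all samples (black, bar for the standard error), without VprBP sh replicate 1 (open diamond) and without each of the other 5 samples (ticks), with dashed lines at 2-fold. CCN2 moves from 0.83 to -3.47 and CCN1 from 0.42 to -0.29 at the diamond, while the other 8 genes keep their side of 0.

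Counted together, 3 of the 10 genes were called, which is 30.0% against 46.4% of all genes, with WWTR1 higher and YAP1 and ANKRD1 lower. NF2, LATS1, TEAD1 and AMOTL2 had adjusted p-values under 0.05 without reaching 2-fold, and LATS2, CCN1 and CCN2 had neither. The values of the groups did not overlap in 6 of the 10, against 79.5% of all genes. The median log2 fold change of the 10 was -0.28, beside 0.08 for all genes tested.

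The regulators upstream of LATS moved in both directions. Of 27 such genes, all tested, 11 were called lower and 2 higher, beside 22.0% and 24.5% of all genes, and their median log2 fold change was -0.72. By the naming rule, the lower group was led by WWC2 (971 ± 76 normalized counts against 1, 0 and 0 counts, at least 332-fold lower), WTIP (928 ± 90 and 121 ± 23), AJUBA (9274 ± 120 and 1722 ± 47), TNIK (560 ± 32 and 149 ± 50) and TAOK1 (6769 ± 551 and 2325 ± 153). WTIP and AJUBA encode LIM proteins that restrain LATS, while TAOK1 and TNIK belong to the kinases that act upstream of it. WWC1, the gene of KIBRA, a partner of Merlin and relative of WWC2, was called higher (4354 ± 99 and 9800 ± 2000). So was MAP4K1, a low gene outside the naming rule that was named after its values were seen, at 8.53 ± 6.43 and 34.4 ± 2.00. Within the core cassette, named here after its values were seen, STK3 (MST2) went from 1556 ± 67 to 644 ± 81 and SAV1, its scaffold, from 2415 ± 56 to 989 ± 41, both called lower. STK4 (MST1), at 2059 ± 69 and 1112 ± 46, had a log2 fold change of -0.89 and was called by DESeq2 alone (-1.01). MOB1A (4374 ± 324 and 4425 ± 522) and MOB1B (702 ± 41 and 727 ± 80), the coactivators of LATS, had adjusted p-values of 0.891 and 0.702 from edgeR, and the large cadherin FAT1 (9424 ± 2218 and 5719 ± 872) and SCRIB (3344 ± 232 and 3814 ± 589) were not called either.

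The partners of TEAD and YAP included genes that moved far in opposite directions. Of 5 tested among 6 listed, 3 were called lower and 1 higher, beside 22.0% and 24.5% of all genes. VGLL1, a vestigial-like cofactor that binds TEAD in place of YAP, went from 298 ± 57 to 4768 ± 44 normalized counts, 15.9-fold higher, whereas its relative VGLL3 went from 1081 ± 261 to 14.3 ± 3.9, 75.1-fold lower. RUNX2 (407 ± 62 and 17.2 ± 6.7) and TP73 (1493 ± 116 and 559 ± 172), transcription factors that bind YAP, were called lower. VGLL4, a repressor of TEAD, had 1011 ± 96 and 1309 ± 42, under 2-fold.

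Most listed YAP and TAZ targets outside the 10 genes were lower in VprBP sh. Of 21 targets, all tested, 12 were called lower and 2 higher, beside 22.0% and 24.5% of all genes, and the median log2 fold change was -1.22 beside 0.08. As the list was chosen with earlier results of these data known, these numbers only describe it. AXL, a receptor tyrosine kinase, went from 14530 ± 1008 normalized counts to 2, 0 and 3 counts, at least 4972-fold lower. FOXF2, a forkhead transcription factor, went from 708 ± 58 to 1, 1 and 0 counts, at least 242-fold lower. AREG, an EGF receptor ligand, and F3, tissue factor, went from 1511 ± 300 to 31.7 ± 3.3 and from 18749 ± 1397 to 492 ± 112 normalized counts. NT5E, which encodes the ectonucleotidase CD73, went from 7982 ± 1171 to 582 ± 18. The called increases were in TGFB2 (125 ± 12 and 1274 ± 117), which encodes a TGF-beta ligand, and EDN1 (278 ± 18 and 1003 ± 569), which encodes endothelin. MYOF, IGFBP3 and CRIM1, the most abundant targets not called, had log2 fold changes of -0.22, -0.40 and -0.66. Without VprBP sh replicate 1, 12 targets were called lower and 3 higher, ARHGEF17 being added, and without Control sh replicate 1 the numbers were 11 and 4. The fall in YAP1, the rise in WWTR1 and the mixed targets are side by side here, and no test linked them.

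**Figure D5:**
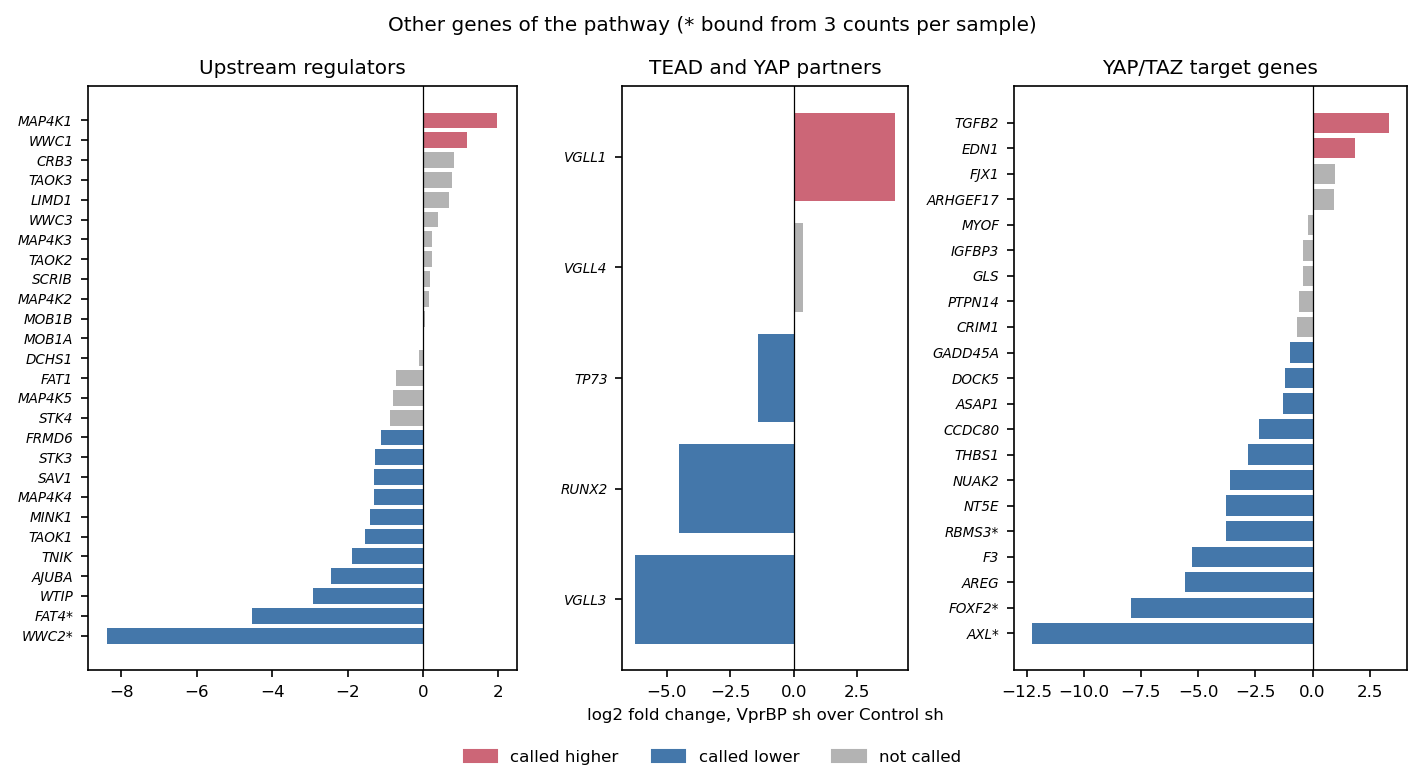
Log2 fold change of each tested gene in the 3 lists of other pathway genes, coloured by call (red higher, blue lower, grey not called), each panel on its own scale, with an asterisk where the bar is the bound that 3 counts per sample allow. Called decreases number 11 of 27 upstream regulators, 3 of 5 partners and 12 of 21 targets.

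The ligase to which VprBP belongs was measured beside these genes. CUL4B was called higher (1547 ± 154 and 3328 ± 564 normalized counts), though not without VprBP sh replicate 1 (log2 fold change 0.95) nor with DESeq2 (0.98). DDB1 (13599 ± 886 and 10312 ± 55), CUL4A (2627 ± 219 and 3539 ± 83) and RBX1 (843 ± 131 and 1014 ± 25) stayed under 2-fold. In the GENCODE 44 annotation, 8 of the 10 members overlap another gene, 5 of them on the same strand and 0 of them a protein-coding gene, and since the strand setting of the counting is not stated, reads of such pairs cannot be told apart.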

How the data were processed

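RNA-seq was measured in 6 samples, grouped and numbered by their titles. Per the methods and the submitters' processing notes, the authors used STAR on single-end reads against hg38 and Partek Flow for quantification. The estimated counts they deposited carry no normalization and no pooling (59.4% are whole numbers, and each gene sums to at least 10). The labels name a SMARTER kit and the methods a stranded KAPA kit. As the design had been written for counts, values were rounded. They were tested with edgeR 4.0.16 in R 4.3.3 (quasi-likelihood test, upper quartile factors at 0.75, the upper quartile method being the authors' own, filter at a minimum of 10 counts, Benjamini-Hochberg adjustment over all genes), in place of Partek's Gene Specific Algorithm, with all 6 samples and no block. A standard error is the estimate over the root of its F statistic. TPM was computed here from the deposited estimated counts with the merged exons of GENCODE 44, which matched 99.8% of genes. The floor is 3 counts, or 2.30 to 3.48 normalized counts depending on the sample, and covers counting error only. Python 3.11.15 with scipy 1.17.1 ran the permutation tests.

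The members and lists were chosen with earlier results of these data known. The rule named all members, the ligase and paralog lists, up to 5 genes in each direction per other list (called, and reaching a mean of 100 normalized counts in either group) and up to 3 abundant ones not called. Outside it, THBS1, RBMS3, ARHGEF17, FJX1 and GADD45A were named after their values were seen. Other genes outside it, apart from the cell type markers, are identified where they appear. Alternatives were TMM factors, library size alone, DESeq2 1.42.0, limma-voom (limma 3.58.1), other filters, a replicate block, leaving out each sample, shares without length correction and, chosen after seeing the data, summed replicates and other windows around YAP1. Same-numbered samples did not deviate together (r of -0.22, -0.09 and -0.16 over 11238 genes). The tests were tried on simulated counts with far fewer changed genes than were called here and no outlying library. That trial does not check them under the conditions of these data. Other assays of the study were not used here, and 2 further genes of the lists are not reported here.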

Additional observations from a re-analysis of the deposited data

How the results depend on the processing

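Of the 10 genes, all but CCN1 and CCN2 kept their direction and their call, which needs both an adjusted p under 0.05 and a fold over 2, under all 14 alternatives. The adjusted p of AMOTL2, 0.0337 with all samples, was above 0.05 with library size alone (0.403), the replicate block (0.0535), replicates 2 and 3 summed (0.219) and on leaving out any sample but VprBP sh replicate 1 (0.0506 to 0.119). YAP1 ran from -3.78 to -3.44, WWTR1 from 1.24 to 1.57 and ANKRD1 from -1.93 to -1.57 on the log2 scale. CCN2 was 0.83 with all samples but -1.73 with limma-voom (adjusted p = 0.187), and it ran from -3.47 to 1.40 when 1 sample was left out. CCN1 ran from -0.29 to 0.68 when 1 sample was left out. Of the samples left out, only VprBP sh replicate 1 reversed the direction of either gene. CCN2 also changed direction with all samples kept, under limma-voom and under the replicate block. The replicate numbers gave no pairing, and a replicate block called 7686 genes in place of 7778 and gave CCN2 a log2 fold change of -1.57 (adjusted p = 0.365). It changed no call among the 10 genes. With at least 10 counts in every sample, 4690 of 13103 genes were called, 2694 higher and 1996 lower. Of the lists, 8 targets were lower and 2 higher, and 9 upstream genes were lower and 1 higher, out of fewer tested genes than above. Among the genes that this filter left untested were AXL, FOXF2, RBMS3, MAP4K1, WWC2, AMOT, CCN3, CCN5 and CCN6. GADD45A, still tested, fell short of 2-fold (-0.99). Library size alone, which moves the median of all genes from 0.08 to 0.29, gave 4 targets called higher (FJX1 and ARHGEF17 added), as did leaving out Control sh replicate 1, with 2 to 4 over all samples left out. The share of called genes that were higher was 52.7%, and 60.1% with library size alone. GADD45A, just past 2-fold, lost its call under 6 alternatives. Within 500 kb of YAP1, 10 of 10 genes tested were called lower, and within 2 Mb 17 of 18. Summing replicates 2 and 3 of each group left the same 3 members called. ANKRD1 had 57 to 63 counts per VprBP sh sample, which limits its precision. Without length correction the shares of YAP1 and NF2 in their families differed by -40.6 and 8.37 percentage points, in place of -34.5 and 5.89.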
